A study of Mus musculus with 3 samples.

Results

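The chemokine and formyl peptide receptors described here are 9 genes for seven-transmembrane receptors that guide leukocytes along chemical gradients: Ccr1, Ccr2, Ccr7, Ccrl2, Cx3cr1, Cxcr4, Cmklr1, Fpr1 and Fpr2. They were taken by gene symbol from the 55536 annotated genes of the tables, 22028 of them protein-coding, and all 9 were found. The RNA came from the cytosolic fraction of bone marrow-derived macrophages of C57BL/6J mice, primary phagocytes grown from marrow, and was sequenced after removal of ribosomal RNA. All cells had received lipid A, the membrane anchor of bacterial lipopolysaccharide, at 100 ng/ml for 12 h, had then been kept without it for 12 h, and were collected at the start (0 min) of a further stimulation with 100 ng/ml. The 3 libraries form 1 group, so every value describes these lipid A-exposed cells and no effect of lipid A. They are numbered as biological replicates 1, 2 and 3 under 1 donor identifier; separate animals are not stated, so their spread may be technical. Sex and age were not collected.

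Most receptors of this family work through the pertussis toxin-sensitive Gi class of G proteins, which release beta-gamma subunits that drive phosphoinositide 3-kinase, calcium signals and actin-based movement, and arrestins then switch the receptor off. Ccr2 brings monocytes out of marrow and into tissue, Cx3cr1 marks patrolling monocytes and many resident macrophages, Ccr7 leads dendritic cells to lymph nodes, and Cxcr4 holds cells in marrow. Ccrl2 is an atypical member that binds chemerin and presents it to the signalling receptor Cmklr1, while Fpr1 and Fpr2 sense formylated peptides of bacteria and mitochondria and, for Fpr2, also host peptides and proteins such as annexin A1.

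The stretch that follows the third membrane helix shows how the members differ, because its first residues, known as the DRY motif, take part in coupling to the G protein. The 30 coding bases aligned to that place in Ccr1 are printed 5′ to 3′, from GENCODE M21 transcripts, with the 9 bases aligned to the motif of Ccr1 in capitals.
Ccr1: GACAGATACctggccattgtccatgctgtg
Ccr2: GATAGGTACttggctattgttcatgctgtg
Ccr7: GACCGCTACgtagccatcgtccaggccgtg
Cx3cr1: GACCGGTACcttgccatcgtcctggccgcc
Cxcr4: GACCGGTACctcgctattgtccacgccacc
Ccrl2: CAAGGATACagggtgttttcccaagggcga
Cmklr1: GACCGCTGCatctccgtgctgctccccgtc
Fpr1: GACCGCTGTatttgtgttctgcatccagtc
Fpr2: GACCGCTGCatttgtgttctgcatccagtc
In Ccr1 these bases lie in the coding sequence of its last exon, at chr9:123964075-123964104 on the minus strand of mm10. In Ccr2 they lie at chr9:124106132-124106161 on the plus strand, and in Ccrl2 at chr9:111056006-111056035 on the minus strand. Ccr2, Ccr7, Cx3cr1 and Cxcr4 each differed from Ccr1 at 2 of the 9 capital bases, all without a change of coded residue, so 5 members kept the motif of Ccr1. The other 4 members, Ccrl2, Cmklr1, Fpr1 and Fpr2, coded for at least 1 other residue there, and Ccrl2 for 2. Over all 30 bases Ccrl2 differed from Ccr1 at 16 positions and Ccr2 at 5. The 4 members without the motif of Ccr1 were also the 4 with the highest RNA levels, given next; this overlap was noticed after the levels were seen.

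Levels are deposited TPM, transcript abundance normalised for length and for the total of a library. Cmklr1, Fpr2, Ccrl2 and Fpr1 were the abundant receptors, Cxcr4, Ccr1 and Ccr2 were low, and Ccr7 and Cx3cr1 were under 1 TPM in every library. The first 4 held 88.3%, 84.2% and 86.7% of the TPM of the 9 members in replicates 1, 2 and 3. Of the 9 members, 7 reached 1 TPM in every library, beside 41.2% of protein-coding genes and 17.1% of all genes, and the median over members was 5.59 ± 0.958 TPM (SD, n = 3). Protein-coding genes had a median of 0.157 ± 0.046 TPM, and those at 1 TPM in every library one of 8.70 ± 0.833 TPM. In a bulk sample, fewer cells that hold a receptor and less RNA per cell cannot be told apart.

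**Figure D1:**
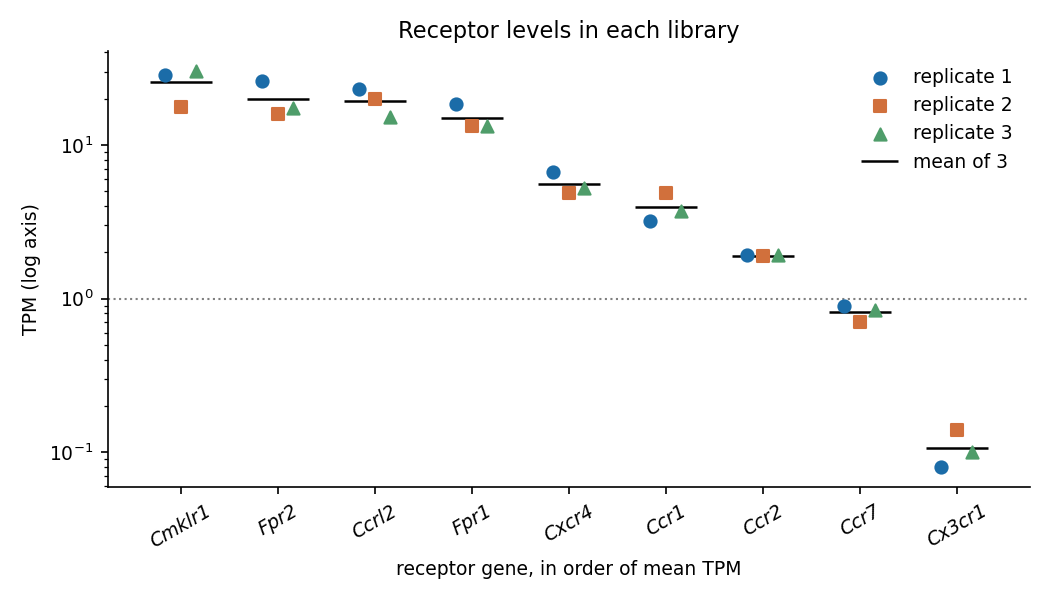
TPM of the 9 receptor genes on a log axis, in order of mean TPM, with 1 point per library and a bar at the mean of 3 libraries; the dotted line marks 1 TPM. Cmklr1, Fpr2, Ccrl2 and Fpr1 lie between 13.3 and 30.5 TPM with overlapping ranges, and the points of Ccr7 and Cx3cr1 lie below the line.

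Cmklr1, the signalling receptor for the attractant chemerin (minus strand of chromosome 5, 113612354 to 113650426), reached 28.5, 17.6 and 30.5 TPM in replicates 1, 2 and 3, a mean of 25.5 ± 6.94 TPM (SD, n = 3). Replicate 2 was low and the other libraries were close together. In all, 1866 protein-coding genes had a higher mean. Ccrl2, the chemerin-presenting member (chromosome 9, 111054486 to 111057519, minus strand), held 23.3, 19.8 and 15.2 TPM, with a mean of 19.4 ± 4.03 TPM. Its order differed from that of Cmklr1, with replicate 3 lowest, so Ccrl2 stood above Cmklr1 in replicate 2 and below it in replicates 1 and 3. The ligand gene of both, Rarres2, which encodes chemerin, was at 0.02 ± 0.02 TPM, and Gpr1, another receptor for chemerin, at 0.007 ± 0.012 TPM.

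Fpr2 (chromosome 17, 17887824 to 17893952, plus strand) held 26.2, 15.9 and 17.5 TPM, with a mean of 19.9 ± 5.53 TPM. Fpr1 (chromosome 17, 17876471 to 17883940, minus strand) held 18.5, 13.3 and 13.3 TPM, with a mean of 15.0 ± 3.00 TPM. Both were highest in replicate 1, and their ranges overlapped. The genes lie 3883 bp apart, head to head, and their coding sequences were 69.0% identical over 1050 aligned bases, the highest identity among the 36 pairs of members. The deposited posterior standard deviation of the count, which grows where reads are shared between genes, was 0 reads for Fpr1 and 0.34 to 0.58 reads for Fpr2, beside 933 to 1182 rounded counts of Fpr2. The other formyl peptide receptor genes were nearly silent: Fpr-rs3, Fpr-rs4, Fpr-rs6 and Fpr-rs7 had 0 counts throughout. A count of 0 leaves room for up to 0.104, 0.0565 and 0.0641 CPM (reads as parts of 1e6 of the total; 3 counts) in replicates 1, 2 and 3. Fpr3 had 1 count, in replicate 3; its model overlaps that of Fpr2 on the same strand.

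Cxcr4, the receptor for the marrow retention factor Cxcl12 (chromosome 1, 128588199 to 128592293, minus strand), held 6.68, 4.84 and 5.21 TPM, a mean of 5.58 ± 0.973 TPM. Ccr1, a receptor for Ccl3 and Ccl5 (chromosome 9, 123962124 to 123968692, minus strand), held 3.21, 4.88 and 3.72 TPM, a mean of 3.94 ± 0.856 TPM. In TPM, Ccr1 was highest in replicate 2, where Cxcr4 was lowest, and their ranges overlapped.

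Ccr2, the main receptor for Ccl2 (chromosome 9, 124101950 to 124113557, plus strand), lies 133257 bp from Ccr1 and held 1.91, 1.90 and 1.91 TPM. This near identity belonged to the TPM scale, since TMM-scaled CPM (CPM on library sizes scaled by the TMM method of edgeR) of Ccr2 were 10.6, 11.8 and 9.07. The coding sequences of Ccr1 and Ccr2 were 63.7% identical over 1051 aligned bases, and the posterior standard deviation was 0 reads for Ccr1 and 0.38 to 1.24 reads for Ccr2.

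Ccr7 (chromosome 11, 99144196 to 99155077, minus strand) held 0.90, 0.70 and 0.84 TPM, from 75, 118 and 104 counts. Cx3cr1 (chromosome 9, 119901616 to 120069879, minus strand) held 0.08, 0.14 and 0.10 TPM, from 13, 46 and 26 counts. As CPM of library totals, Cx3cr1 stood at 0.449, 0.866 and 0.556, with exact 95% intervals of 0.239 to 0.767, 0.634 to 1.16 and 0.363 to 0.814, which cover counting error only. The 3 intervals overlap. The Cx3cr1 level was above the limit that a count of 0 allows in each library.

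The order of mean levels was Cmklr1, Fpr2, Ccrl2, Fpr1, Cxcr4, Ccr1, Ccr2, Ccr7 and Cx3cr1. It was the same in all 5 measures tried (TPM, FPKM, posterior mean TPM, read-derived TPM and TPM rescaled to protein-coding genes). Within a library FPKM and rescaled TPM are multiples of TPM, and posterior mean TPM comes from the same alignments. Their order could therefore hardly differ, and only read-derived TPM is a separate estimate. Fpr2 and Ccrl2 changed places when a library was left out, with Fpr2 lower by a log2(TPM + 1) difference of -0.05 without replicate 1 and of -0.07 without replicate 3. By library, 4 members kept their place in all 3 libraries, namely Fpr1, Ccr2, Ccr7 and Cx3cr1. Of the 8 neighbouring pairs in that order, 4 had TPM ranges that did not overlap between the genes: Fpr1 over Cxcr4, Ccr1 over Ccr2, Ccr2 over Ccr7 and Ccr7 over Cx3cr1. The step from Fpr1 to Cxcr4 was a difference of 1.28 ± 0.07 in log2(TPM + 1) within libraries (SD, n = 3). Fpr1 was higher in 3 of 3 libraries, and the exact two-sided sign-flip permutation p was 0.25, the smallest that 3 libraries allow. The ranges of neighbours among the first 4 genes overlapped, as did those of Cxcr4 and Ccr1. Fpr2 and Ccrl2 were 0.02 ± 0.27 apart in log2(TPM + 1), with Fpr2 higher in 2 of 3 libraries (exact sign-flip permutation p = 1). Cxcr4 and Ccr1 were 0.42 ± 0.44 apart on that scale, Cxcr4 higher in 2 of 3 libraries (exact sign-flip permutation p = 0.5). The 2 protein-coding genes closest to Cmklr1 in log2(TPM + 1) over the 3 libraries were Birc6 and Arhgap25, at Euclidean distances of 0.05 and 0.10. Those closest to Ccr2, the lowest member at 1 TPM in every library, were Qser1 and Tmem138, at 0.04 and 0.05. With 3 libraries these are likenesses of level.

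Between libraries the members differed by less than a factor of 2 in deposited TPM and in TMM-scaled CPM, but 6 of them by more in read-derived TPM, which the authors estimated directly from the reads. A chi-square test of homogeneity of rounded expected counts against TMM-scaled library sizes, with Benjamini-Hochberg adjustment over 13636 genes, and with a demand that the top library exceed the bottom one by a factor of 2, called 0 of the 9 members, beside 16.2% of all genes tested. With protein-coding genes only it called 8.21% of genes and 0 members. Without replicate 3 it called 4.81% of genes and 0 members. With DESeq2 size factors it also called 0 members. At any ratio 7 members had an adjusted p under 0.05, beside 75.6% of all genes. In read-derived TPM, with no test, 6 members had a ratio of at least 2, beside 25.3% of the same genes; in deposited TPM 0 members did, beside 21.6%. Nor did any in FPKM, posterior mean TPM or TPM rescaled to protein-coding genes (0 members each), beside 19.3%, 18.2% and 9.76% of genes. Fpr2 held 14.1, 7.86 and 5.17 read-derived TPM, Ccrl2 12.0, 9.54 and 4.42, and Fpr1 8.29, 5.76 and 3.46. Cxcr4 and Ccr1 were also lowest in replicate 3 on that scale, whereas Cx3cr1 was highest there. The chi-square test compares libraries, not conditions, and treats reads as independent. On the TMM scale ratios ran from 1.26 for Ccr7 to 1.82 for Cx3cr1. The median ratio was 1.62 over members, 1.31 over all genes tested and 1.27 over protein-coding genes tested.

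On the TMM scale Cmklr1, Fpr2, Ccrl2, Fpr1, Cxcr4 and Ccr7 were highest in replicate 1, Ccr1, Ccr2 and Cx3cr1 in replicate 2, and none in replicate 3. With library totals in place of TMM, Ccrl2 was highest in replicate 2. Fpr1 held 34.3, 26.7 and 21.2 TMM-scaled CPM (chi-square adjusted p = 2.47e-25) and Fpr2 33.4, 22.4 and 20.2 (adjusted p = 4.2e-30), from high to low in replicates 1, 2 and 3, an order held by 5 of the 9 members. Ccrl2 held 57.7, 56.3 and 33.3 TMM-scaled CPM (adjusted p = 1.65e-75), with replicate 3 apart from the other libraries. Cmklr1 held 128, 85.5 and 118 (adjusted p = 6.5e-86), so replicate 2 was the low library here as in TPM, but the highest was replicate 1 here and replicate 3 in TPM. Ccr1 was the reverse of the formyl peptide receptors in replicates 1 and 2, at 14.3, 23.3 and 14.1 (adjusted p = 2.5e-31). Ccr7 gave an adjusted p of 0.32 and Cx3cr1 one of 0.0532, both at low counts. The edgeR tagwise biological coefficient of variation ran from 0.167 for Cmklr1 to 0.338 for Cx3cr1, with a median of 0.197 over members and a common value of 0.210.

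**Figure D2:**
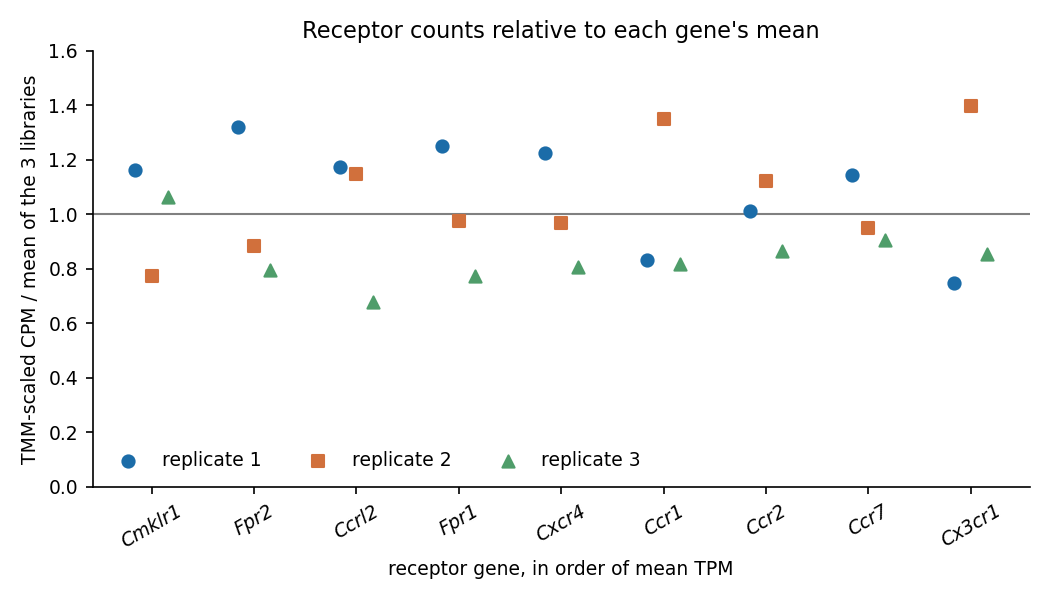
TMM-scaled CPM of each receptor gene in each library divided by that gene's mean over the 3 libraries, with 1 point per library and a line at 1. Replicate 1 is the highest point for 6 genes, replicate 2 for Ccr1, Ccr2 and Cx3cr1, and replicate 3 for none.

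The 3 libraries differed in depth and makeup. Genes held 28981178, 53119941 and 46783133 expected counts in replicates 1, 2 and 3. The 7SL RNA genes Rn7s1 and Rn7s2 took 56.9%, 65.3% and 52.5% of TPM, which lowers the TPM of every other gene, most so in replicate 2. Rescaled to protein-coding genes, Cmklr1 stood at 92.0, 64.6 and 96.6 TPM and Ccr1 at 10.4, 17.9 and 11.8 TPM, so the low Cmklr1 and the high Ccr1 of replicate 2 were also seen on that scale. In read-derived TPM Cmklr1 stood at 13.5, 8.06 and 9.96, so replicate 2 was again the lowest.

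Of the 9 members, 3 have 1 annotated transcript (Fpr1, Ccr1 and Ccr7) and 6 have several. In 5 of those 6 the same transcript led in every library, and Fpr2 was the exception. Transcript Fpr2-202, whose annotated coding sequence is only 147 bases long, took 58.5%, 56.4% and 45.9% of Fpr2 TPM. Fpr2-201, which carries the full receptor coding sequence of 1056 bases, took the remaining 41.5%, 43.6% and 54.1%. Fpr2-202 thus led in replicates 1 and 2 and Fpr2-201 in replicate 3, while in the read-derived tables Fpr2-202 led in all, with 66.0%, 61.8% and 53.9%. The 2 transcripts overlap and their reads are split by estimation, so the shares are uncertain.

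Cmklr1-201, with a complete coding sequence of 1116 bases, took 99.5 ± 0.660% of Cmklr1 TPM (SD, n = 3). In read-derived tables it took 93.7%, 93.2% and 81.3%, with more in the short transcripts Cmklr1-203 and Cmklr1-204 in replicate 3. Cxcr4-201 took 82.7 ± 1.94% of Cxcr4 TPM, the rest going to Cxcr4-202, whose annotated coding sequence is incomplete. Ccr2-202, a model of 1 exon, led Ccr2 with 66.3 ± 6.28%, and all 4 Ccr2 transcripts carry the same coding length of 1122 bases. In read-derived tables Ccr2-202 also led, but with less, at 51.5%, 46.1% and 50.3% in replicates 1, 2 and 3. Only Cx3cr1-201 of the 3 Cx3cr1 transcripts had any TPM, in both kinds of table. Cx3cr1-202, at 0 TPM, stretches the Cx3cr1 model over its neighbours such as Wdr48, Gorasp1, Ttc21a and Csrnp1.

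**Figure D3:**
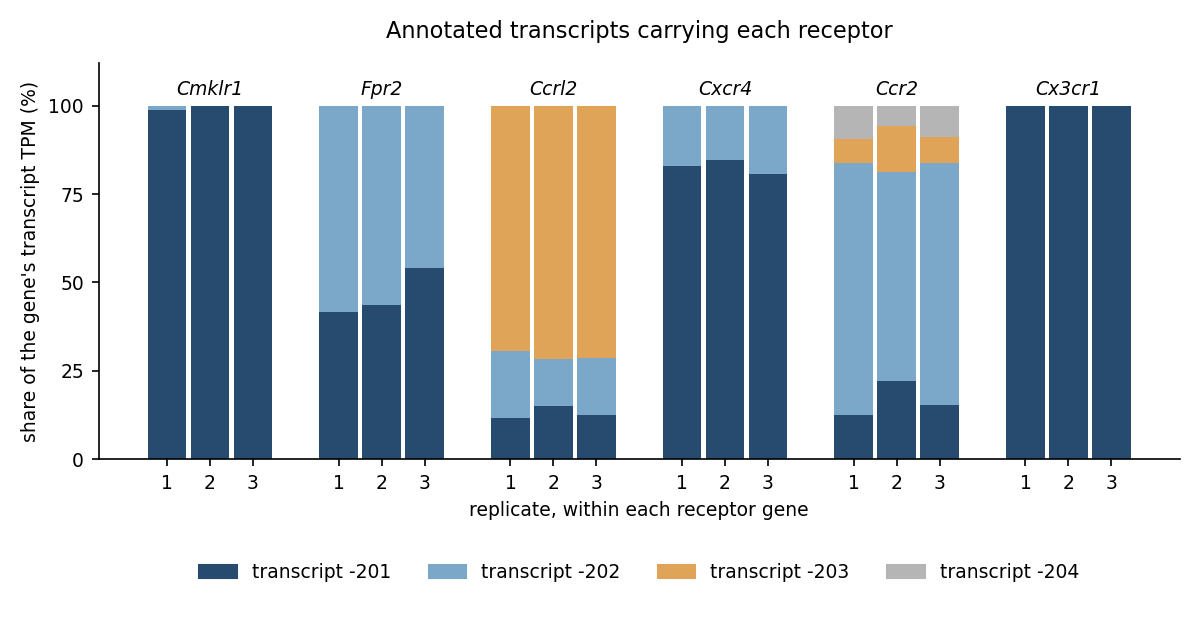
Share of each gene's transcript TPM held by each annotated transcript, in percent, as stacked bars for replicates 1, 2 and 3 of the 6 receptors with several transcripts. Cmklr1-201 and Cx3cr1-201 hold nearly all of their genes' TPM, Ccrl2-203 most of it, and the 2 Fpr2 transcripts change places in replicate 3.

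Ccrl2 has 3 annotated starts, and Ccrl2-203, which begins farthest upstream, took 70.8 ± 1.27% of Ccrl2 TPM (SD, n = 3). Ccrl2-202 took 16.2 ± 2.93% and Ccrl2-201, with the same coding length of 1083 bases as Ccrl2-203, 13.1 ± 1.83%. In read-derived tables Ccrl2-203 also led, but with less, at 55.6%, 59.6% and 59.5% in replicates 1, 2 and 3. Ccrl2-202 took 32.8%, 26.2% and 26.8% there. The promoter window of the leading start is therefore shown, with those of Fpr1 and Fpr2, which lie head to head in the genome. Windows run 5′ to 3′ on the gene's strand, from RefSeq on GRCm38.p6, and were found for 8 of the 9 members. Capitals mark matches, on either strand and whether or not they overlap, to 5 short motifs. TATAAA is the core of the TATA box. The GAGGAA core is bound by the macrophage factor PU.1. AP-1 binds around TGANTCA, with N for any base. The κB core, bound by NF-κB, was searched as GGGA, then 4 bases of any kind, then CC. The core of the interferon-stimulated response element was searched as a pair of GAAA with 2 bases of any kind between them. The windows of Ccrl2, Fpr1 and Fpr2 cover the promoter and the first bases of the first exon, at chr9:111057469-111057768 (minus strand), chr17:17883890-17884189 (minus strand) and chr17:17887574-17887873 (plus strand).
Ccrl2: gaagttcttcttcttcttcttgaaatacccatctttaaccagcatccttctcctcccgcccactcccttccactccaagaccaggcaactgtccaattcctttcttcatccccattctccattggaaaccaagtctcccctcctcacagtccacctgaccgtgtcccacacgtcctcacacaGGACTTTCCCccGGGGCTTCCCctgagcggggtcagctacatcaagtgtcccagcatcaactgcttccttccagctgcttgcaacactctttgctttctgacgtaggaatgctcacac
Fpr1: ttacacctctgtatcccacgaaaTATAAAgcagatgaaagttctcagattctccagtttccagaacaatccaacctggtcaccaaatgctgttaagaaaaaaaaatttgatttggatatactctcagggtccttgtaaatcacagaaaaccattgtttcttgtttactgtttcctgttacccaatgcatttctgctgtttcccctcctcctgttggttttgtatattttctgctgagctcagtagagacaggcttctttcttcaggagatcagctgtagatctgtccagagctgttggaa
Fpr2: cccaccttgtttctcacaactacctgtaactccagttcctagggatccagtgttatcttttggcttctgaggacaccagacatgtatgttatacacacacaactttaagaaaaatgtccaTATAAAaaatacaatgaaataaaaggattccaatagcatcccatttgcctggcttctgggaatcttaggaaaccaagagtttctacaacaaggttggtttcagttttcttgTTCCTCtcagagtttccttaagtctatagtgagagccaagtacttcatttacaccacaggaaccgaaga
The Ccrl2 window held 2 κB core matches, beginning at -68 and -56 from the start site. Among all RefSeq windows of this length 20.7% held at least 1 such match, and the share with 2 was not computed. The windows of the other Ccrl2 starts, which overlap the printed Ccrl2 window in part, held no match to any of the 5 motifs. The Fpr2 window held a PU.1 core at -19 and a TATA core at -130, and the Fpr1 window a TATA core at -227. Of all windows 28.3% held the PU.1 core, 13.6% the TATA core, 7.81% the AP-1 core and 3.44% the interferon element core. A match is a description of letters and was not tested as a site.

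Ligand genes fell into a very abundant and a nearly silent set. Of 14 chemokine ligand genes of the members, 10 were at 1 TPM or more in all libraries, beside 41.2% of protein-coding genes, and the median of the list was 86.8 ± 19.8 TPM (SD, n = 3). The list was led by Ccl5, a ligand of Ccr1, at 4852 ± 869 TPM, followed by Ccl3 at 198 ± 44.2 and Ccl4 at 178 ± 57.9 TPM. Ccr1 itself stood at 3.94 TPM. The ligand genes of Ccr7, Ccl19 and Ccl21a, held 1 and 0 counts over all libraries, and Cx3cl1, the ligand of Cx3cr1, 0.04 ± 0.006 TPM. For Cxcr4, Cxcl12 had 1 count in all, whereas Mif, a cytokine that also binds Cxcr4, held 91.3 ± 8.16 TPM. Reads of Mif can be shared with near-identical copies, so that level is uncertain.

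Of 6 ligand genes of Cmklr1 and the formyl peptide receptors, Anxa1 and Saa3 reached 1 TPM in every library. Anxa1, which encodes annexin A1, a ligand of Fpr2, held 76.4, 76.9 and 67.9 TPM, close together in all libraries. Saa3, an acute phase apolipoprotein gene of a family that can bind Fpr2, held 7075, 2456 and 6635 TPM, with replicate 2 low. Camp held 0.167 ± 0.021 TPM, Saa1 0.097 ± 0.047 TPM and Saa2 0 counts.

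Other chemokine receptors were mostly low. Of 13 genes, 1 reached 1 TPM in every library: Cxcr3, the receptor for Cxcl9 and Cxcl10, at 1.80, 1.95 and 2.85 TPM, which put it beside Ccr2. It did not reach 1 TPM in every library in the read-derived tables. Ccr3 and Cxcr6 followed at 0.297 ± 0.065 and 0.213 ± 0.309 TPM, the latter from 3, 5 and 68 counts, so its mean rests on replicate 3. Ccr8 had 0 counts in every library. None of the 4 atypical receptors that scavenge chemokines reached 1 TPM: Ackr1, Ackr2 and Ackr3 had 0 counts, and Ackr4 was seen in replicate 3 alone, at 0.11 TPM. Ccrl2, at 19.4 ± 4.03 TPM, was the atypical receptor at this level.

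Among 8 other chemoattractant receptors, 3 stood above all 9 members in mean TPM. C3ar1, the receptor for complement C3a, held 244 ± 36.5 TPM, Ptafr, for platelet-activating factor, 94.7 ± 10.6 TPM, and C5ar1, for complement C5a, 41.8 ± 8.89 TPM (SD, n = 3). The lowest C5ar1 value, 31.9 TPM, was above the highest Cmklr1 value. C5ar2 held 1.01 ± 0.158 TPM, Gpr183, an oxysterol receptor, 0.297 ± 0.131 TPM, and the leukotriene B4 receptor genes Ltb4r1 and Ltb4r2 0.093 ± 0.015 and 0.017 ± 0.012 TPM.

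RNA of most listed genes of the machinery downstream was detected, while protein was not measured. Of 21 genes for G proteins and effectors, 20 reached 1 TPM in every library, beside 41.2% of protein-coding genes. The median of that list was 46.7 ± 7.64 TPM, and Rac2, a GTPase of actin remodelling, led at 230 ± 51.1 TPM. The Gi subunit gene Gnai2 held 187 ± 11.8 and the beta subunit gene Gnb1 148 ± 19.2 TPM, while Gnai1 had 0 counts in every library. Of 13 genes of receptor desensitisation, 11 reached 1 TPM in every library, beside the same 41.2%, with a median of 18.0 ± 1.75 TPM. Arrb2, the gene of beta-arrestin 2, led at 90.9 ± 16.0 TPM, followed by Rgs1, which shortens Gi signals, at 73.8, 85.2 and 31.1 TPM, and the receptor kinase gene Grk2 at 60.6 ± 8.51 TPM. Replicate 3 was low for Rgs1. Rgs16 had the lowest mean of the list, at 0.013 ± 0.006 TPM.

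**Figure D4:**
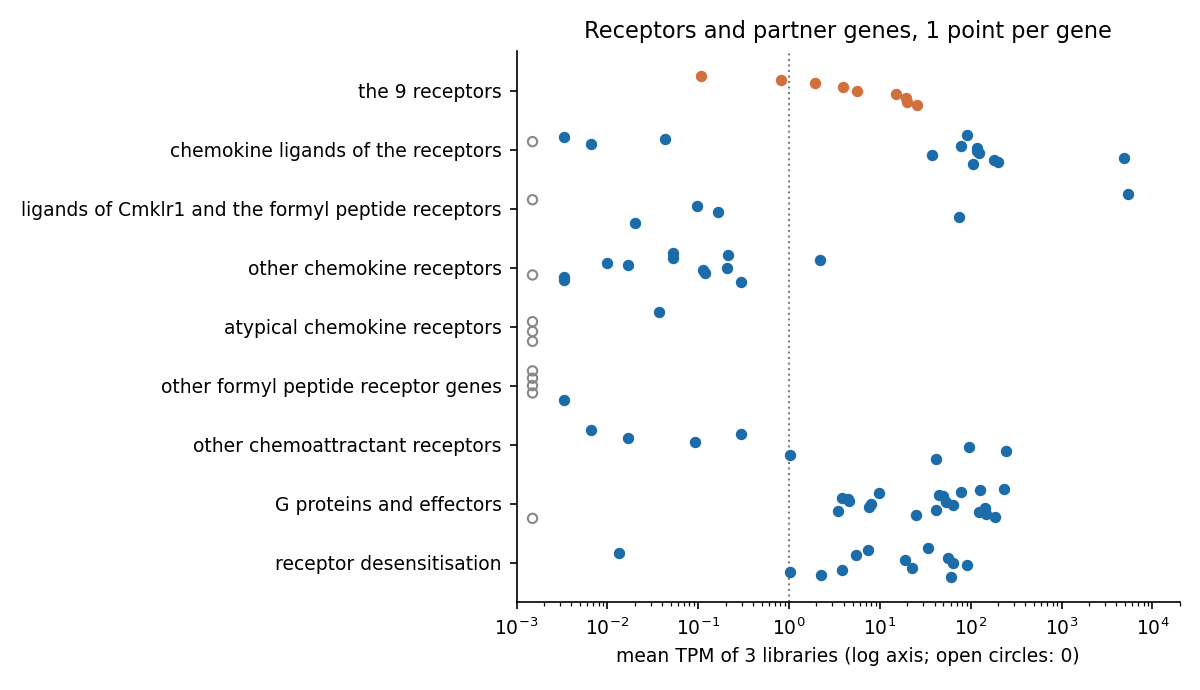
Mean TPM over 3 libraries on a log axis, 1 point per gene, for the 9 receptors and 8 groups of partner or related genes; open circles are genes at 0 and the dotted line marks 1 TPM. The receptors lie between 0.107 and 25.5 TPM, other chemokine and formyl peptide receptors almost wholly to the left of the line, and signalling genes mostly to its right.

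Markers of other cells were set beside the members because several of these receptors are known from other leukocytes. All 8 macrophage markers reached 1 TPM in every library, with a median of 213 ± 55.2 TPM. Of the monocyte markers, Ly6c2, which defines classical monocytes, held 10.2, 10.2 and 8.03 TPM, and Chil3 2.50 ± 0.376 TPM. Treml4 held 0.273 ± 0.065 TPM, Ace 0.03 ± 0.01 TPM and Spn 0.803 ± 0.221 TPM. The part of monocytes in the level of Ccr2 was not tested. Of 10 neutrophil markers, 4 reached 1 TPM (Csf3r, S100a9, S100a8 and Mmp8), with a summed level of 49.8, 35.0 and 52.5 TPM. That sum was mostly Csf3r, at 42.9, 24.0 and 39.9 TPM. The neutrophil-defining genes Ly6g and Retnlg had 0 counts in every library, and Elane had 1. Others were detected, with 16 to 50 counts of Ngp and 2.08 to 3.68 TPM of S100a8. The part of neutrophils in the levels of Fpr1 and Fpr2 was not tested.

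Of 9 dendritic cell markers, 2 reached 1 TPM, Fscn1 and Ccl22, with a summed level of 3.75, 3.93 and 5.14 TPM over the list. Flt3 and Zbtb46, which define dendritic cells, held 0.033 ± 0.012 and 0.08 ± 0.035 TPM, and Ccl17 had 0 counts. The part of such cells in the level of Ccr7, 0.813 ± 0.103 TPM, was not tested. None of 6 T and NK cell, 4 B cell or 4 mast cell and basophil markers reached 1 TPM; their summed levels were 0.02 to 0.11, 0 to 0.04 and 0.12 to 0.42 TPM.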

How the data were processed

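RNA of the cytosolic fraction was profiled in 3 libraries of 1 group, with replicate numbers from the labels. Per the deposited README, gene and transcript tables derive from transcriptome alignments to mm10 under annotation M21, while 1 more transcript table came straight from the reads. The sources used here do not name the aligner or quantifier, nor the use of strand. The authors' expected counts estimate how many reads belong to a gene, splitting shared reads. The deposited TPM values and the authors' FPKM values are normalised for length and library total, per the file headers. A deposited signal per gene, the posterior standard deviation of the count in reads, was read as given. Rows naming no gene (26345 of 81881) were left out; they held 0.418%, 0.248% and 0.165% of counts.

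Rounded expected counts were given TMM library sizes by edgeR 4.0.16 under R 4.3.3, 0.5 counts were added for ratios, and genes with a mean of 10 or more counts were tested with the chi-square procedure, which was tested on simulated data. With 1 group edgeR had no contrast to test. Intervals are exact binomial (Clopper-Pearson) at 95%. A pseudocount of 1 was used in log2(TPM + 1), which understates differences of low genes. Coding sequences (longest complete one per gene) were aligned with Biopython 1.88, and the motif stretch through translated alignment (BLOSUM62, gap penalties 11 and 1); a comparison of whole proteins was not made. Python 3.11.15, numpy 2.4.6, pandas 2.3.3, scipy 1.17.1 and matplotlib 3.10.9 were used. All 130 symbols of the lists were matched; 1 monocyte marker, and the count and sum of its list, are not reported here. Genes named are all members. Of each list of partner or related genes they are the 3 highest and the lowest, or all of lists of up to 8. Also named are the 2 nearest in level to the highest and to the lowest member at 1 TPM. The cell type markers named did not follow this rule. They and other list genes were chosen after their values were seen. The members and lists were chosen with earlier results of these data known. Alternatives were other units, thresholds, pseudocounts, DESeq2 1.42.0 size factors, library totals, count filters, ratios, protein-coding genes only, read-derived tables and each replicate left out.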

Additional observations from a re-analysis of the deposited data

How the results depend on the processing

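The number of members at 1 TPM in every library was 7, beside 41.2% of protein-coding genes and 17.1% of all genes. It was 4 at a threshold of 5 TPM, 4 at 10 TPM, 5 with read-derived TPM and 8 with TPM rescaled to protein-coding genes. The shares over all genes were not computed at these other settings, so whether those counts are unusual was not tested. The median over members, 5.59 TPM, became 9.27 in FPKM, 2.38 in read-derived TPM and 18.7 in TPM rescaled to protein-coding genes, and 5.05 to 5.95 TPM with each replicate left out. No member differed between libraries at a ratio of 2 or 3, and 6 did at 1.5, beside 27.2% of all genes. With no test, 0 members had a ratio of at least 2 in TPM, FPKM, posterior mean TPM and TPM rescaled to protein-coding genes, and 6 in read-derived TPM, a comparison of units chosen after seeing the data. The count over all genes, 2203, was 4034 and 777 with a mean of at least 1 and 50 counts, 3704 and 1464 at ratios of 1.5 and 3, 947 with protein-coding genes only, and 608 without replicate 3. Separate neighbours numbered 4 to 6 over the alternatives, and members with a constant leading transcript 5 or 6. Of 64 recomputed differences between neighbours, 52 moved by less than 1 SD and 12 by more, and Fpr2 fell below Ccrl2 without replicate 1 (-0.05) and without replicate 3 (-0.07). Of the other chemokine receptors, 1 gene was at 1 TPM in every library, 0 at 5 TPM and 0 in read-derived TPM. No paired analysis was possible because there is 1 group. Depth limits Ccr7 and Cx3cr1, at 13 to 118 counts.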
